A study of Rattus norvegicus with 5 samples.

Results

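The transcripts of 43 cytosolic ribosomal protein genes, 30 of the large and 13 of the small subunit, were followed across 3 populations of hypothalamic cells. The members were the genes whose symbol marks a protein of the large (*Rpl*, *Rplp*) or small (*Rps*) subunit, without the S6 kinases, among the 4736 genes that a probe set of the rat U34A array names alone. The brightest probe set of a gene, by the mean of its 5 signals, stood for that gene, so that 43 of the 62 ribosomal protein probe sets with 1 symbol were used. No filter on low signals was applied, and all 43 members were tested. The symbols of 7 members (*Rpl19l4*, *Rpl36al1*, *Rpl3l*, *Rplp1l3*, *Rps27l*, *Rps2-ps1* and *Rps4x-ps9*) name a paralog, a like sequence or a pseudogene, and near-identical copies elsewhere in the genome could share their signal.

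The cells were primary cultures from the hypothalamus of Wistar rat embryos at day 17. GFP+ cells had received a vector in which the *Trh* promoter drives GFP and were collected as GFP-positive cells by flow cytometry 48 h after transfection (2 arrays, RNA pooled from 6 experiments). GFP+/- cells had received the same vector and had run through the cytometer without being selected, so that they held cells with and without GFP (2 arrays, 3 experiments pooled). NT cells were not transfected (1 array, 3 experiments pooled). The GFP marks cells in which a short *Trh* promoter was active and is not a direct measure of *Trh* mRNA. The brightest *Trh* probe set itself was dim, at 115 and 141 on the GFP+ arrays, 109 and 106 on the GFP+/- arrays and 96.6 on the NT array, with no call in any comparison. Another *Trh* probe set, also without a call, was highest on the NT array (122), with 89.5 and 40.2 on the GFP+ and 86.8 and 51.0 on the GFP+/- arrays. By RT-PCR the study reports more *Trh* mRNA in GFP+ cells than in NT or GFP+/- cells.

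A signal here is the linear brightness of a probe set, which the authors had scaled to one common mean on every array, and a difference is a difference of log2 signals. A call means an adjusted p under 0.05 in one limma fit of all 5 arrays over 8740 probe sets. The labels name the 2 arrays of a population biological replicates, whereas the study's methods describe aliquots of one pooled RNA, so that p-values measure the spread between these arrays only. With 1 NT array, the NT cells and their array cannot be told apart, and the fit takes the spread of the NT array to be that of the others. In these pools, a shift in the cells present and a shift in the RNA per cell cannot be told apart either.

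Ribosomal proteins coat the rRNA of the 2 subunits: the small subunit reads the mRNA, and the large subunit joins amino acids and lets the chain out through a tunnel. A cell makes the proteins in matching amounts. Their mRNAs are among the most abundant of a growing cell and mostly begin with a terminal oligopyrimidine (TOP) tract, an unbroken run of C and T bases at the first transcribed base, through which their translation answers to growth signals.

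The start sites of 8 members are shown because the results below turn on these genes: 7 that were called or nearly called against NT cells, and *Rpl31*, one of the few that were not above the NT array. Each window, from RefSeq with assembly GRCr8, holds 10 bases before the annotated start and 20 bases from it, written 5′ to 3′ on the gene's strand. Capitals mark an unbroken run of C and T that begins at the start base.
Rpl22 (chr5:168117951-168117980, + strand): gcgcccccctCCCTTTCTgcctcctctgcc
Rps10 (chr20:5700725-5700754, - strand): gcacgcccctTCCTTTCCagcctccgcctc
Rpl35a (chr11:81235002-81235031, - strand): tcttgccttcCTCTTTCCgccatcttggcg
Rps3a (chr2:173827023-173827052, - strand): gtacttccgcCCTTTTggctctcagagcgg
Rpl31 (chr9:49143101-49143130, + strand): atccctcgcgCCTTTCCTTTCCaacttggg
Rpl41 (chr7:1563478-1563507, - strand): ctcggaagtgacgacaccaagcacgccatt
Rpl21 (chr12:13386134-13386163, - strand): ttccgccggggcagccatcttccaggttgg
Rpl7a (chr3:30637126-30637155, + strand): ctccagccgagcaagatggtgagtgattat
The first 5 windows hold such a run and the last 3 do not, so that *Rps3a* and *Rpl31* share the tract with *Rpl22*, *Rps10* and *Rpl35a*.

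Of the 43 members, 37 had a promoter in the RefSeq table. Among them 17 (45.9%) had a run of at least 5 C or T bases from the annotated start base, against 4.69% of all 27457 promoters. Such a run with C as the start base was found for 11 members (29.7%) and 2.63% of all promoters. A run of at least 5 that began within 5 bases of the start was found for 21 members (56.8%) and 24.2% of all promoters. The annotated start decides this count, and a start placed a few bases away leaves out a tract. The 17 members with the run had a median log2 difference of 0.68 between GFP+ and NT cells, and the 20 members without it one of 0.66. For GFP+/- against NT cells these medians were 0.75 and 0.72, and for GFP+ against GFP+/- cells -0.15 and -0.12. Members with and without the run therefore lay at like medians in each comparison.

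The mean log2 signals of most ribosomal protein transcripts lay above those of the single NT array. This held for 37 of 43 members in GFP+ and 35 in GFP+/- cells, beside 4609 and 3936 of all 8740 probe sets. Of the 43, 4 and 9 were called higher, beside 4.38% and 4.2% of all probe sets. With a prior without an intensity trend no member was called, beside 0.0114% of all probe sets in each direction. Fits without 1 array had 1 residual degree of freedom, too few to judge the calls. Hybridization controls, added in equal amounts, also lay above the NT array, by a median of 0.86 and 1.27 log2 units. The 3′ over 5′ signal ratio of *Gapdh*, a sign of RNA quality, was 5.45 on the NT array and 12.7 to 17.6 on the others. The part of both in the members' differences was not tested. Relative to each gene's own mean over the 5 arrays, the members' median log2 signal was 0.092 and -2.72e-05 on the GFP+ arrays, 0.18 and 0.16 on the GFP+/- arrays, and -0.55 on the NT array. Over all 8740 probe sets the same medians stayed between -0.082 and 0.081. Both subunits lay alike on the NT array, with a median of -0.55 for the large and -0.55 for the small subunit.

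**Figure D1:**
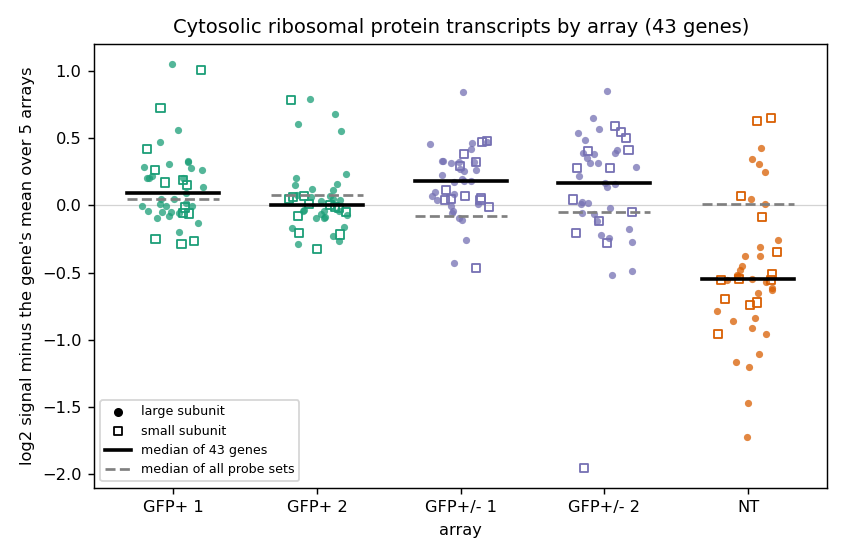
Log2 signal of each of 43 ribosomal protein genes minus that gene's mean over 5 arrays (vertical axis, log2 units), for each array (horizontal axis). Filled points are large-subunit and open squares small-subunit genes; black lines are medians of the 43 genes, and dashed grey lines medians of 8740 probe sets. The members' median on the NT array is -0.55, below those of the other 4 arrays.

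GFP+ cells were compared with NT cells to set the sorted cells against cells that had not been transfected. In this comparison 37 of 43 members lay above and 6 below 0, with a median log2 difference of 0.63, against 0.056 over all probe sets. Of the 43 members, 4 were called higher (*Rpl19l4*, *Rpl17*, *Rpl41* and *Rps10*), beside 383 of 8740 probe sets (4.38%), and none lower, beside 4.06%. At an unadjusted p under 0.05, 15 of 43 were higher, beside 1129 of 8740 probe sets (12.9%), and 1 (*Rps3a*) lower, beside 11.4%. The ratio of averaged signals was past 1.5 for 24 of 43 that were higher in GFP+ cells, beside 2243 of 8740 (25.7%). It was past 1.5 for 1 of 43 (*Rps3a*) that was lower, beside 21.3%. Past a ratio of 2 lay 7 of 43 that were higher, beside 1268 of 8740 (14.5%), and none lower, beside 12.3%. The GFP+ arrays both lay above the NT array for 35 of 43 (81.4%), beside 41.5% of all probe sets. Both lay below it for 6 of 43 (14%), beside 35.9%. Over a mean signal of 4000 both lay above it for 27 of 32 members, beside 57.9% of 330 probe sets with no ribosomal symbol. Over 16000 both lay above it for 11 of 11 members, beside 88.9% of 45 such probe sets. No member was called with a prior without an intensity trend, beside 0.0114% of all probe sets in each direction. Fits that left out 1 array had 1 residual degree of freedom and cannot judge these calls.

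*Rpl17*, whose protein lines the tunnel through which the new chain leaves, had signals of 504 and 500 on the GFP+ arrays, 357 and 336 on the GFP+/- arrays and 152 on the NT array. The populations did not overlap and stood in the order GFP+, GFP+/-, NT. The log2 difference was 1.72 (SE 0.23, adjusted p = 0.0163) between GFP+ and NT cells and 1.19 (SE 0.23, adjusted p = 0.0346) between GFP+/- and NT cells. It was one of the dimmer members that were called.

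*Rpl19l4*, a sequence like that of the large-subunit gene *Rpl19*, had signals of 1036 and 864 on the GFP+ arrays, 418 and 462 on the GFP+/- arrays and 180.0 on the NT array. It stood in the same order of populations, with log2 differences of 2.39 (SE 0.23, adjusted p = 0.0107) for GFP+ and 1.29 (SE 0.23, adjusted p = 0.0304) for GFP+/- over NT cells. *Rpl19* itself, a tunnel rim protein, did not share the pattern: its signals were 12802 and 10030 on the GFP+ arrays, 9935 and 8866 on the GFP+/- arrays and 10375 on the NT array. Here GFP+ and NT cells overlapped (log2 difference 0.13, SE 0.27, adjusted p = 0.839).

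*Rpl41* encodes the smallest ribosomal protein, which sits between the subunits. Its signals were 3625 and 4570 on the GFP+ arrays, 5507 and 5901 on the GFP+/- arrays and 1847 on the NT array. All 4 transfected arrays lay above the NT array, and both GFP+/- arrays above both GFP+ arrays. The averaged signals were 2.22 times (GFP+) and 3.09 times (GFP+/-) that of NT cells, with log2 differences of 1.14 (SE 0.23, adjusted p = 0.0438) and 1.63 (SE 0.23, adjusted p = 0.0194).

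*Rps10*, a protein of the small-subunit head and a gene altered in Diamond-Blackfan anemia, had signals of 7308 and 6437 on the GFP+ arrays, 8484 and 8645 on the GFP+/- arrays and 3341 on the NT array. It too stood in the order GFP+/-, GFP+, NT without overlap. The log2 differences from NT cells were 1.04 (SE 0.22, adjusted p = 0.0465) for GFP+ and 1.36 (SE 0.22, adjusted p = 0.0247) for GFP+/- cells.

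*Rpl22*, an RNA-binding protein on the outer face of the large subunit, had signals of 33661 and 29842 on the GFP+ arrays, 30585 and 39157 on the GFP+/- arrays and 11711 on the NT array. The 2 transfected populations overlapped, and both lay above the NT array. The difference from NT cells was called for GFP+/- (1.56, SE 0.31, adjusted p = 0.0382) but not for GFP+ cells (1.44, SE 0.31, adjusted p = 0.0501). This does not show that the populations differ: between GFP+ and GFP+/- cells the log2 difference was -0.13 (SE 0.26, adjusted p = 0.868).

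**Figure D2:**
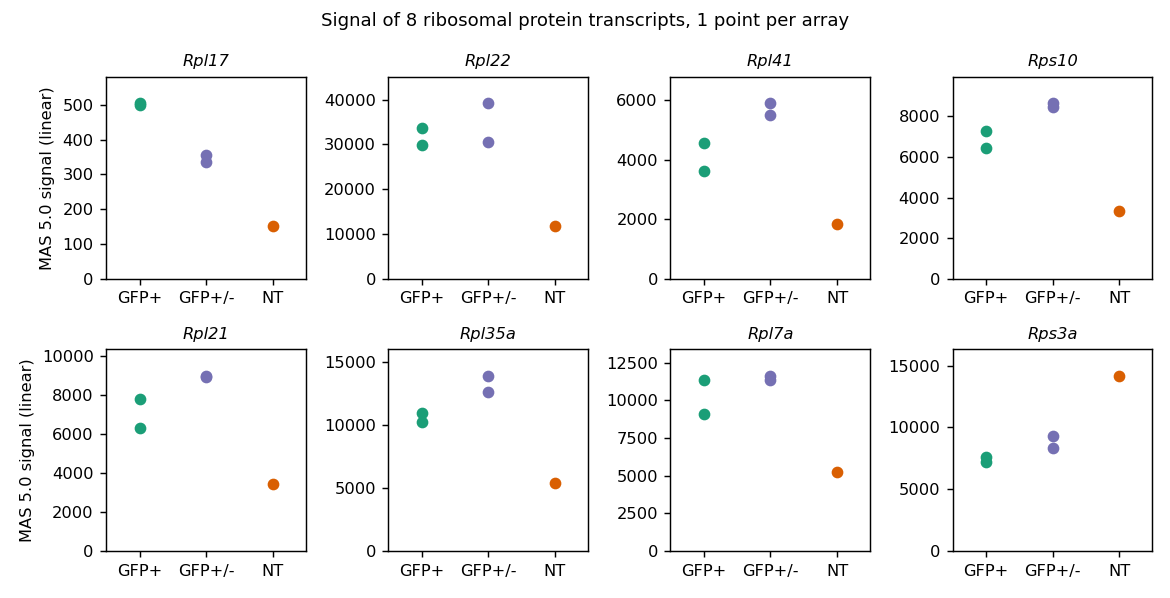
MAS 5.0 signal (vertical axis, linear, from 0) of 8 ribosomal protein transcripts in GFP+, GFP+/- and NT cells (horizontal axis), with 1 point per array. The NT array is lowest for 7 of them and highest for *Rps3a*, at 14176.

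GFP+/- cells were compared with NT cells to set transfected but unselected cultures against untransfected ones, and this comparison held most of the calls. The median log2 difference of the members was 0.73, against -0.094 over all probe sets, and 35 members lay above and 8 below 0. Of the 43 members, 9 were called higher, beside 367 of 8740 probe sets (4.2%), and none lower, beside 5.03%. At an unadjusted p under 0.05, 23 of 43 were higher, beside 999 of 8740 (11.4%), and 1 (*Rps3a*) lower, beside 13.5%. The ratio of averaged signals was past 1.5 for 29 of 43 that were higher in GFP+/- cells, beside 1912 of 8740 (21.9%). It was past 1.5 for 2 of 43 (*Rps2-ps1* and *Rps3a*) that were lower, beside 26.3%. Past a ratio of 2 lay 13 of 43 that were higher, beside 1056 of 8740 (12.1%), and 1 lower (*Rps2-ps1*), beside 15.2%. Both GFP+/- arrays exceeded the NT array for 34 of 43 (79.1%), beside 35.2% of all probe sets. Both were below it for 8 of 43 (18.6%), beside 44.0%. Over a mean signal of 4000 both exceeded it for 27 of 32 members, beside 64.5% of 330 probe sets with no ribosomal symbol. Over 16000 both exceeded it for 11 of 11 members, beside 88.9% of 45 such probe sets. The same NT array enters both comparisons with NT cells, which are therefore not independent of each other. With a prior without an intensity trend no member was called here either, beside 0.0114% of all probe sets in each direction. Fits that left out 1 array again had 1 residual degree of freedom and cannot judge the calls.

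Besides *Rpl41*, *Rps10*, *Rpl19l4*, *Rpl17* and *Rpl22*, the calls in GFP+/- cells were *Rpl21*, *Rpl35a*, *Rpl7a* and *Rpl36al1*, all of the large subunit. *Rpl21* had signals of 7818 and 6294 on the GFP+ arrays, 9000 and 8934 on the GFP+/- arrays and 3460 on the NT array. Its difference from NT cells was 1.37 (SE 0.24, adjusted p = 0.0278) in GFP+/- and 1.02 (SE 0.24, adjusted p = 0.0597) in GFP+ cells. *Rpl35a*, another Diamond-Blackfan anemia gene, had signals of 10275 and 11010 on the GFP+ arrays, 13940 and 12627 on the GFP+/- arrays and 5402 on the NT array. Both genes were highest on the GFP+/- arrays, without overlap. *Rpl7a*, a core protein of the large subunit, had signals of 11337 and 9105, 11632 and 11382, and 5227 in the same order of populations. *Rpl36al1*, a paralog of *Rpl36a*, had 3694 and 3531, 4660 and 4717, and 2411. The log2 differences between GFP+/- and NT cells were 1.30 (adjusted p = 0.0303) for *Rpl35a*, 1.14 (adjusted p = 0.0493) for *Rpl7a* and 0.96 (adjusted p = 0.0397) for *Rpl36al1*.

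A few members stood the other way, brighter in NT cells, though none of them was called. *Rps3a*, a small-subunit protein near the mRNA exit, had signals of 7581 and 7190 on the GFP+ arrays, 9273 and 8338 on the GFP+/- arrays and 14176 on the NT array. The NT array was the highest and the GFP+ arrays the lowest, with log2 differences from NT of -0.94 (SE 0.23, adjusted p = 0.0663) for GFP+ and -0.69 (SE 0.23, adjusted p = 0.132) for GFP+/- cells. After quantile normalization, which gives each array the same distribution of signals, *Rps3a* was called lower in both, at -1.26 (adjusted p = 0.0216) and -1.22 (adjusted p = 0.0245). *Rpl4*, which reaches into the exit tunnel, had 5196 and 4484, 5227 and 5429, and 6838. *Rpl31*, at the rim of the tunnel, had 11273 and 9176, 11293 and 11309, and 13265. *Rpl6* and *Rpl14*, which neighbour each other on the large subunit, had log2 differences between GFP+ and NT cells of -0.38 (adjusted p = 0.382) and -0.54 (adjusted p = 0.449). The transfected arrays were all below the NT array for *Rps3a*, *Rpl4*, *Rpl31*, *Rpl6* and *Rpl14*.

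**Figure D3:**
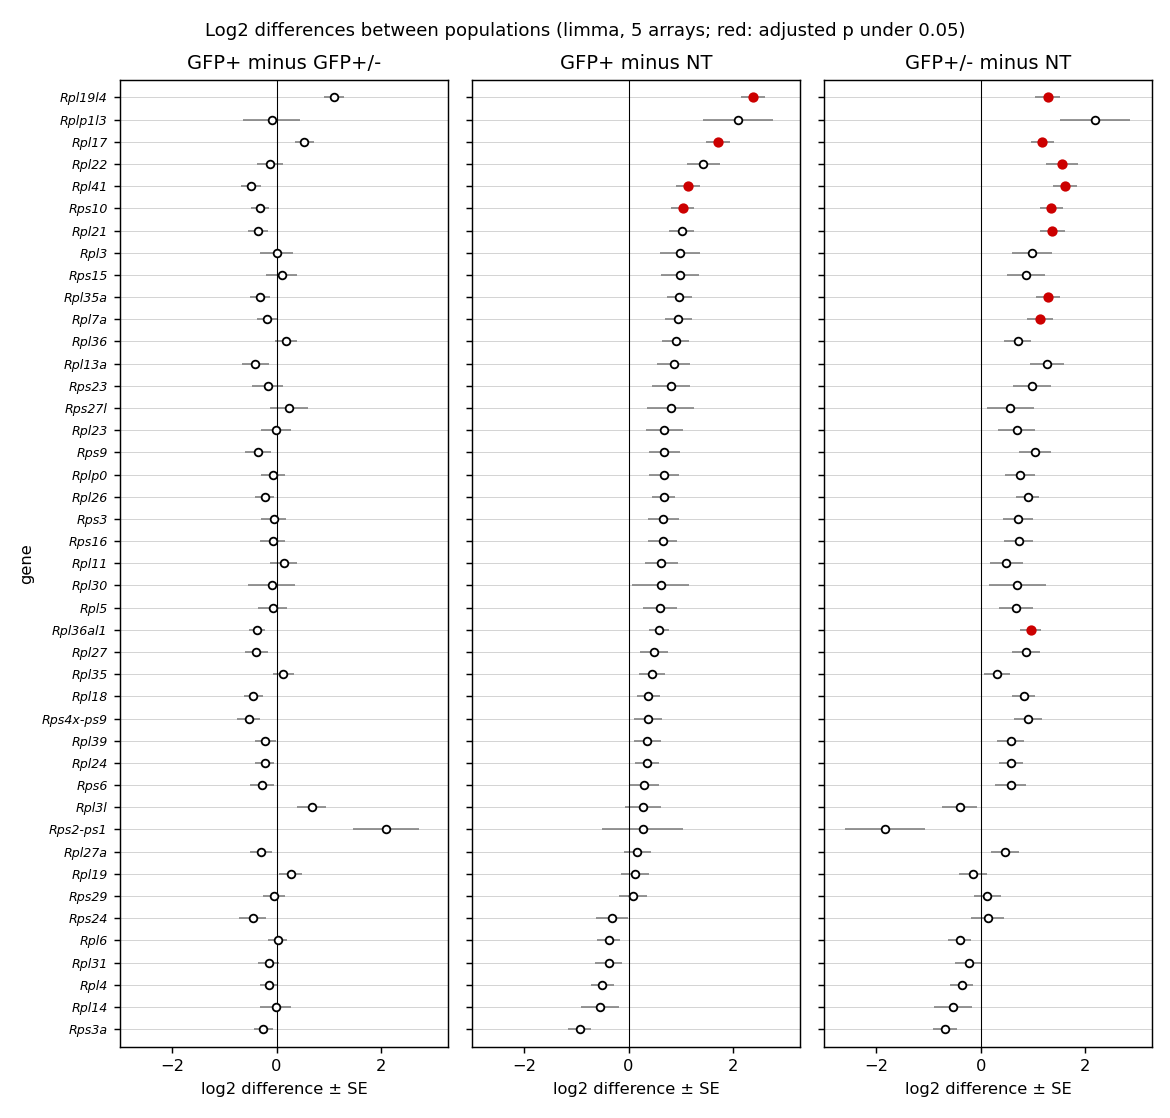
Log2 difference with its SE (horizontal axes) for each of 43 ribosomal protein genes (vertical axis), for GFP+ minus GFP+/-, GFP+ minus NT and GFP+/- minus NT cells, ordered by the middle panel. Red points have an adjusted p under 0.05 in the limma fit; there are none on the left, 4 in the middle and 9 on the right.

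GFP+ and GFP+/- cells were compared to set the sorted cells against the mixed cells of the same kind of culture. The median log2 difference of the members was -0.13, against 0.13 over all probe sets, with 12 members above and 31 below 0. No member was called in either direction, beside 0% of all probe sets in each direction, since limma called none on the array. At an unadjusted p under 0.05, 3 of 43 members were higher (*Rpl19l4*, *Rpl17* and *Rps2-ps1*), beside 9.15% of all probe sets. At that p 2 of 43 were lower (*Rpl41* and *Rpl18*), beside 4.75%. The 2 populations did not overlap for 5 of 43 members (11.6%) that were higher in GFP+ cells, beside 30.4% of all probe sets. They did not overlap for 20 of 43 (46.5%) that were lower, beside 15.4%. Over a mean signal of 4000 the lower share was 31.5% of 330 probe sets with no ribosomal symbol, beside 18 of 32 members, and between 8000 and 16000 it was 42.2% of 102, beside 8 of 13. The higher share over 4000 was 17.9%, beside 1 of 32 members. Averaged signals past a ratio of 1.5 were found for 3 of 43 members that were higher in GFP+ cells, beside 19.9% of all probe sets. None was lower past it, beside 9.93%. Past a ratio of 2, the change the study's methods asked for, lay 2 of 43 that were higher (*Rps2-ps1* and *Rpl19l4*), beside 8.89%. None was lower past it, beside 4.18%.

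The 5 members that lay above without overlap were *Rpl17*, *Rpl19*, *Rpl19l4*, *Rpl3l* and *Rps2-ps1*, and 3 of them are named as a paralog, a like sequence or a pseudogene. *Rpl19l4* had a log2 difference of 1.11 (SE 0.19, adjusted p = 0.145) and *Rpl17* one of 0.54 (SE 0.19, adjusted p = 0.298). *Rps2-ps1*, a pseudogene in RefSeq, had the widest difference, 2.10 (SE 0.63, adjusted p = 0.257), on a dim probe set with signals of 56.8 and 48.6 on the GFP+ arrays, 20.5 and 7.29 on the GFP+/- arrays and 43.6 on the NT array. At these signals the GFP+/- arrays alone differed by 1.49 log2 units, and the other probe set of the gene, dimmer still, was at -0.055. *Rpl3l*, the form of *Rpl3* known from muscle, was also dim, at 217 and 319, 156 and 174, and 217.

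Among the members lower in GFP+ cells were *Rpl41* (log2 difference -0.49, SE 0.19, adjusted p = 0.345), *Rpl18* (-0.45, SE 0.18, adjusted p = 0.357), and *Rps24*, altered in Diamond-Blackfan anemia (-0.46, SE 0.26, adjusted p = 0.506). *Rps4x-ps9* had the lowest value, -0.54 (SE 0.22, adjusted p = 0.364), with 12791 and 15173 on the GFP+ arrays, 18803 and 21721 on the GFP+/- arrays and 10750 on the NT array. After quantile normalization the median was -0.045, against -0.0054 over all probe sets. The members lower without overlap were then 10 of 43 (23.3%), beside 21.5% of all probe sets. With equal medians on all arrays they were 26 of 43 (60.5%), beside 23.6%.

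Grouped by their place on the ribosome, the measured members of each list lay in a narrow range or were split, by their brightest probe sets. The 5 measured proteins of the mRNA entry and decoding site were *Rps3*, *Rps9*, *Rps15*, *Rps16* and *Rps23*. By these probe sets they lay between 0.65 and 0.98 log2 units above NT in GFP+ and between 0.73 and 1.05 in GFP+/- cells, with no call. Between GFP+ and NT cells the dimmer probe sets were at -0.52 for *Rps3*, and at 1.00 (adjusted p = 0.0451, called) and 0.45 for *Rps15*. *Rps3*, at the mRNA entry, had 29122 and 27458 on the GFP+ arrays, 27226 and 31745 on the GFP+/- arrays and 17773 on the NT array. *Rplp0*, the base of the stalk that recruits elongation factors, was the one stalk protein measured. It had 13216 and 10296, 13555 and 11026, and 7264, with differences from NT of 0.68 (adjusted p = 0.219) and 0.75 (adjusted p = 0.177).

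*Rpl5* and *Rpl11*, which carry the 5S rRNA into the large subunit and, outside the ribosome, bind the p53 regulator Mdm2, had differences of 0.60 (adjusted p = 0.354) and 0.63 (adjusted p = 0.304) between GFP+ and NT cells. *Rpl5* was dim, at 131 and 160 on the GFP+ arrays, 153 and 153 on the GFP+/- arrays and 95.4 on the NT array, whereas *Rpl11* had 14756 and 14283, 16110 and 10828, and 9378. The 5 measured Mdm2 binders, with *Rpl23*, *Rpl26* and *Rps3*, lay between 0.60 and 0.69 by their brightest probe sets, and none was called in any comparison. The second probe sets of 4 of them did not share that range, at -0.25 for *Rpl11*, -0.71 for *Rpl23*, -0.52 for *Rps3* and 1.06 for *Rpl26*.

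The exit tunnel rim was split. Of 7 measured proteins, 6 lay above NT in GFP+ cells, from *Rpl19* (0.13) to *Rpl17* (1.72), and *Rpl31* lay below (-0.38, adjusted p = 0.444). *Rpl39*, a small rim protein, was at 0.36 (adjusted p = 0.470). Of the 5 measured Diamond-Blackfan anemia genes, *Rps10* was called in both comparisons with NT cells and *Rpl35a* in 1, while *Rps24* was at -0.32 (adjusted p = 0.630) in GFP+ and 0.14 (adjusted p = 0.853) in GFP+/- cells. *Rps6*, the target of the S6 kinases that growth signals switch on, had 20044 and 20134, 21573 and 27569, and 16341, with a difference from NT of 0.30 (adjusted p = 0.628) in GFP+ cells. The ribosomal proteins outside the naming rule were *Rpsa* and *Rack1*, with differences of 0.79 (adjusted p = 0.136) and 0.30 (adjusted p = 0.654) between GFP+ and NT cells.

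The size of the difference from NT cells also moved with brightness over the whole array. Among probe sets with no ribosomal symbol and a mean signal over 16000 (45 probe sets), the median log2 difference from NT was 0.58 in GFP+ and 0.67 in GFP+/- cells, beside 0.69 and 0.87 for the 11 members that bright. Between 4000 and 8000 it was 0.090 and 0.19 for 183 such probe sets, beside 0.59 and 0.70 for 8 members. Between 8000 and 16000 it was 0.33 and 0.50 for 102 such probe sets, beside 0.45 and 0.59 for 13 members. Over 4000 it was 0.29 and 0.37 for 330 probe sets, beside 0.66 and 0.74 for 32 members. The highest signal on the NT array was 26621, against 37335 to 56775 on the other arrays. After quantile normalization the members over 16000 were at 0.18 (GFP+) and 0.32 (GFP+/-), and the 45 other probe sets at 0.033 and -0.0070. Between 8000 and 16000 the members were then at 0.21 and 0.28 and the other probe sets at 0.22 and 0.17, so that between GFP+ and NT cells the members did not lie above probe sets as bright. Between 4000 and 8000 the members were at 0.62 and 0.67 and the others at 0.10 and 0.12. The median of all 43 members was 0.33 and 0.37 after this step, in place of 0.63 and 0.73.

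**Figure D4:**
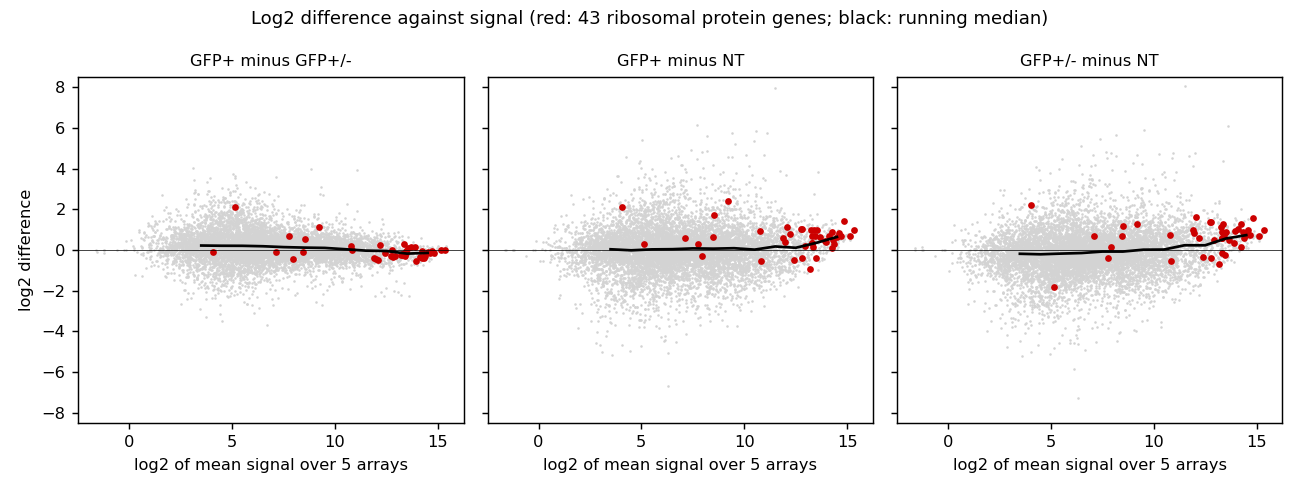
Log2 difference (vertical axis) against log2 of the mean signal over 5 arrays (horizontal axis) for 8740 probe sets (grey) and 43 ribosomal protein genes (red), in the 3 comparisons. Black lines are medians of all probe sets in bins 1 log2 unit wide; against NT cells they rise at the highest signals, where most members lie.

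Controls spiked in before hybridization and RNA quality moved with the NT array too. The 9 probe sets of the hybridization controls had a median log2 difference of 0.86 between GFP+ and NT, 1.27 between GFP+/- and NT and -0.42 between GFP+ and GFP+/- arrays. These differences have the same signs as the members' medians and are larger. The 3′ over 5′ signal ratio of *Gapdh* was 14.6 and 17.6 on the GFP+ arrays, 12.7 and 14.2 on the GFP+/- arrays and 5.45 on the NT array, and that of beta-actin was 14.4 to 31.4 on the other arrays and 10.9 in NT cells. The 5S rRNA control, itself an RNA of the ribosome, had signals of 769 and 858 on the GFP+ arrays, 376 and 392 on the GFP+/- arrays and 215 on the NT array. Its log2 difference was 1.92 between GFP+ and NT, 0.83 between GFP+/- and NT and 1.08 between GFP+ and GFP+/- arrays, the last opposite in sign to the members' median of -0.13. The part of these controls in the members' differences was not tested.

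Markers of other cells moved with the populations as well. The summed signal of 8 fibroblast and matrix markers, all measured, was 13920 and 20088 on the GFP+ arrays, 42391 and 41814 on the GFP+/- arrays and 18192 on the NT array. For 8 of 10 neuron markers the sums were 26702 and 22528, 17535 and 19062, and 33619. The 2 of 4 erythroid markers measured summed to 3502 and 3711, 8668 and 5991, and 380.0. The endothelial and mural markers (5 of 6) summed to 1842 and 3579, 8872 and 11112, and 1470, and the proliferation markers (4 of 5) to 6692 and 12169, 12933 and 13446, and 14208. The astrocyte (5 of 6) sums lay between 18978 (NT) and 29084, those of oligodendrocytes (5 of 6) between 1184 (NT) and 1470, and those of microglia (5 of 6) between 271 and 518 (NT). A sum follows its brightest markers. Between GFP+ and GFP+/- cells all 8 measured neuron markers lay above 0 and all 8 fibroblast and matrix markers below. The endothelial and mural markers were split there, 3 above and 2 below 0, with a median log2 difference of 0.031. The 2 erythroid markers were split too, at -1.11 and 0.49. Between GFP+/- and NT cells 3 endothelial and mural markers lay above 0 and 2 below. No measured marker of these lists was at 0. The part of cell composition in the members' differences was not tested.

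Probe sets of one gene gave unlike answers in many cases. Of the 16 members with more than 1 probe set, 8 had probe sets on both sides of 0 between GFP+ and NT cells, 6 between GFP+/- and NT cells, and 5 between GFP+ and GFP+/- cells. In 7 of the 16 the differences between GFP+ and NT cells spanned more than 1 log2 unit. For *Rps3* the brightest probe set was at 0.67 (adjusted p = 0.237) and the dimmer one, with 4690 and 4481 on the GFP+ arrays, 7131 and 7331 on the GFP+/- arrays and 6574 on the NT array, at -0.52 (adjusted p = 0.200). *Rpl23*, an Mdm2 binder, was at 0.69 and -0.71. *Rpl3*, at the centre where peptide bonds form, was at 0.99 and -0.12, and *Rpl13a*, known also as a translational silencer, at 0.87 and -0.46. Over the 16 genes the median span was 0.73 log2 units, beside the median difference of 0.63 over all members.

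The 4 probe sets of *Rpl21* agreed in direction against NT cells but not between GFP+ and GFP+/- cells, where they lay from -0.35 to 0.55. They lay between 1.02 and 2.22 log2 units above NT in GFP+ cells and between 1.34 and 1.78 in GFP+/- cells. Between GFP+ and NT cells the dimmer ones were called (adjusted p = 0.0208, 0.0451 and 0.0237), though the brightest was not (adjusted p = 0.0597). The second probe set of *Rpl3l* had 228 and 161 on the GFP+ arrays, 28.0 and 25.5 on the GFP+/- arrays and 19.7 on the NT array, and was called between GFP+ and NT cells (3.28, adjusted p = 0.0218), whereas the brighter one was at 0.28 (adjusted p = 0.708). Of the 19 dimmer probe sets of members, 5 were called higher in GFP+ and 4 in GFP+/- than in NT cells, beside 4.38% and 4.2% of all probe sets. Over these 19 the median difference from NT was 0.28 in GFP+ and 0.19 in GFP+/- cells. A further 40 ribosomal protein probe sets with several symbols, which the rule leaves out, had medians of 0.20 and 0.53. Both lie below the members' medians. In 9 of the 16 genes the brightest probe set gave the highest difference between GFP+ and NT cells. Most of these genes have 2 probe sets, so this count is near an even split.

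**Figure D5:**
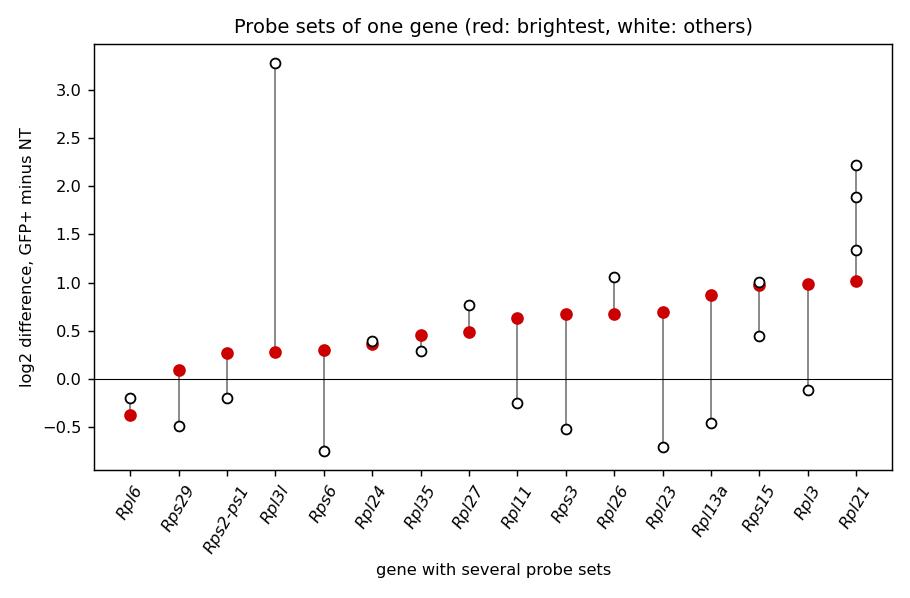
Log2 difference between GFP+ and NT cells (vertical axis) for every probe set of the 16 members with several probe sets (horizontal axis). Red points are the brightest probe set, used for the gene; in 8 of the 16 genes the probe sets lie on both sides of 0.

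Between the 2 arrays of a population the members were close. The median absolute log2 difference was 0.22 for GFP+ and 0.21 for GFP+/- arrays, against 0.36 and 0.32 over all probe sets, and 0.23 and 0.24 over probe sets with no ribosomal symbol and a signal over 4000. In GFP+ cells no member differed past 2-fold between arrays, and 30 of 43 were brighter on array 1. *Rps27l*, a paralog induced by p53, differed the most there (7373 and 3830), by 0.94 log2 units. In GFP+/- cells 2 members differed past 2-fold, *Rps2-ps1* and *Rpl30*, whose signals were 590 and 235.

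Other lists of translation genes differed in their medians. The 6 measured genes of the elongation list had a median of 0.77 between GFP+ and NT cells and 0.59 between GFP+/- and NT cells. In each, 5 of 6 lay above 0, and the members' medians were 0.63 and 0.73. The highest between GFP+ and NT cells were *Eef1a2* (1.35, adjusted p = 0.407), *Eef2k* (1.16, adjusted p = 0.0738) and *Tufm* (0.92, adjusted p = 0.0446, called). *Eef1a2* was dim, at 58.6 and 24.9 on the GFP+ arrays, 41.6 and 17.9 on the GFP+/- arrays and 14.9 on the NT array. *Eef2k* encodes a kinase and not an elongation factor, and *Tufm* acts in mitochondria. *Eef1g* was at 0.61, *Eef1a1* at 0.0011 and *Eef2* at -0.36. Of 14 initiation factors, *Eif3b* was called higher (1.41, adjusted p = 0.0438) and *Eif2s3* (-1.96, adjusted p = 0.0145) and *Eif4a2* (-2.79, adjusted p = 0.0235) lower in GFP+ than in NT cells. Their median was 0.0094. The 10 measured ribosome biogenesis genes had a median of -0.15, with no call in any comparison. The 14 mitochondrial ribosomal proteins had medians of 0.15 (GFP+) and 0.50 (GFP+/-) over NT, and *Mrpl23* alone was called, in GFP+/- cells (1.83, adjusted p = 0.0277). The 5 other TOP mRNAs measured, of which *Eef1a1*, *Eef1g* and *Eef2* are elongation factors too, had medians of 0.61 and 0.36, with 4 of 5 above 0 in each. Among them *Hnrnpa1* was called higher in GFP+ than in NT cells (1.17, adjusted p = 0.0301). *Rps6kb1*, the S6 kinase gene measured, was called lower in GFP+ than in NT cells, with signals of 40.2 and 62.9 on the GFP+ arrays, 67.9 and 82.2 on the GFP+/- arrays and 285 on the NT array (-2.50, adjusted p = 0.0345).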

How the data were processed

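RNA of GFP+, GFP+/- and NT cells had been hybridized to 5 Affymetrix rat U34A arrays. The authors made the deposited values with MAS 5.0, as one linear signal intensity per probe set and array, each array scaled to a common mean. The detection calls of the arrays were not analysed here. Of 8799 probe sets, 59 controls were left out. Signals under 1 were set to 1, and the log2 values of 8740 probe sets were fitted with limma 3.58.1 (R 4.3.3), with an intensity trend, all 5 arrays, one mean per population and Benjamini-Hochberg adjustment over all probe sets. The fit was tested on simulated data. Arrays carry no read depth, so their number limits the precision.

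Genes came from the platform's annotation (1 symbol for 7006 probe sets, several for 308, none for 1426), and all 43 member symbols were found in RefSeq of GRCr8. Members and gene lists were chosen with earlier results of these data known. Named were the members with the 8 highest and 8 lowest differences in each comparison, those called, those whose probe sets disagreed by more than 1 log2 unit, and members of the role, translation and cell type lists. Alternatives were quantile normalization, equal medians, 16 added to each signal, a limit to the brightest 41% of probe sets, a prior that has no trend, a replicate block, averaging the probe sets of a gene, only the members read from plain probe sets (suffix _at, designed to match 1 transcript) and leaving out each array of GFP+ and GFP+/- cells. The authors' controls for hybridization and RNA quality were read separately. Figures were drawn with matplotlib 3.10.9.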

Additional observations from a re-analysis of the deposited data

How the results depend on the processing

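The members' median relative to all probe sets kept its sign in every alternative, and the calls held in part. That difference was -0.25 between GFP+ and GFP+/-, 0.57 between GFP+ and NT and 0.82 between GFP+/- and NT cells. Quantile normalization brought it to -0.039, 0.31 and 0.34. The pooled SD of the members' median relative to all probe sets, between arrays of a population, was 0.068. The -0.039 between GFP+ and GFP+/- cells is smaller in size, so no direction is read from it. The brightest 41% of probe sets gave 0.70 for GFP+/- against NT. Leaving out 1 array gave -0.38 to -0.15, 0.47 to 0.66 and 0.76 to 0.89. Members called higher in GFP+ than in NT cells were 4 of 43, beside 4.38% of all probe sets, and 7 after quantile normalization, beside 4.77%. They were 12 of 40 among the brightest 41%, beside 16.7%, 2 of the 23 read from plain probe sets, and 0 with a prior without an intensity trend. Those in GFP+/- over NT cells were 9 of 43, beside 4.2%, and 19 of 40 among the brightest 41%, beside 16.4%. From plain probe sets they were 5 of the 23, and without the trend 0. The share called of all plain probe sets was not counted, so 2 and 5 of the 23 have no background beside them. The main calls held with quantile normalization, 16 added, equal medians (not *Rps10* in GFP+ cells) and the brightest 41%. A fit without 1 array had 1 residual degree of freedom, too few to judge calls. Without the trend, the whole array kept 1 higher and 1 lower call against NT cells. Among the brightest 41%, *Rpl19l4* was also called higher (1 member) between GFP+ and GFP+/- cells, beside 2.23%. *Rps3a* was the 1 member called lower. This was against NT cells in both populations after quantile normalization, beside 4.57% (GFP+) and 4.71% (GFP+/-) of all probe sets. It was also so in GFP+ cells among the brightest 41%, beside 14.9%.

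Members higher in GFP+ than in GFP+/- cells without overlap were 5 (30.4% of all probe sets), and 7 to 13 (43.1% to 47.2%) with 1 array left out, 3 (30.2%) from plain probe sets and 2 without the 7 members named as paralog or pseudogene, an alternative chosen after seeing the data. Those lower were 20 (15.4%), and 10 (21.5%) after quantile normalization, 26 (23.6%) with equal medians, 12 (14.7%) from plain probe sets and 23 to 27 (25% to 30.3%) with 1 array left out. A population left with 1 array overlaps less by construction. Those higher than in NT cells were 35 of 43 (GFP+, 81.4%) and 34 of 43 (GFP+/-, 79.1%), beside 41.5% and 35.2% of all probe sets. After quantile normalization they were 31 (72.1%) and 28 (65.1%), beside 40% and 41.2%. From plain probe sets they were 16 and 16 of the 23, beside 40.0% and 33.4% of all plain probe sets.

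Of 48 named differences, 42 kept their direction throughout. These were the 8 highest and 8 lowest values of each comparison in the main fit, so that the choice itself favoured a kept direction. Between GFP+ and GFP+/- cells, *Rpl11* went from 0.14 to -0.020 with equal medians and to between -0.15 and 0.42 with 1 array left out (negative without GFP+/- array 2). *Rps27l* there went from 0.24 to between -0.24 and 0.71 (-0.24 without GFP+ array 1, -0.066 without GFP+/- array 2), and *Rpl36* from 0.19 to between -0.023 (without GFP+ array 1) and 0.40. Between GFP+ and NT cells *Rpl19* went from 0.13 to -0.12 after quantile normalization and to between -0.049 (without GFP+ array 1) and 0.30, and *Rps29* from 0.087 to -0.43 after quantile normalization and -0.20 as the mean of its probe sets. *Rpl3l* in GFP+/- against NT cells went from -0.40 to 0.019 as the mean of its probe sets. Apart from the fits with fewer samples, the cause of these changes was not tested.

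Equal array numbers did not pair the arrays by any label, and the deviations of equal numbers correlated at 0.063 over 8740 probe sets and at 0.20 over the brightest 3583. With the replicate number as a block, the members' median relative to all probe sets between GFP+ and GFP+/- cells was -0.25 and 0 members were called, as without the block.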
